A study of Homo sapiens with 27 samples.

Results

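The 8 subunits of the TRiC chaperonin (also called CCT), encoded by TCP1, CCT2, CCT3, CCT4, CCT5, CCT6A, CCT7 and CCT8, were followed in RM82 cells, an established Ewing sarcoma line. Every transcript whose GENCODE gene symbol was one of these names was taken, which gave 92 listed transcripts of 104 annotated for the 8 genes, out of 93530 transcripts listed in the 6 libraries and 18776 genes with a count. The series holds 27 samples and was made to test error-correcting molecular barcodes. Only the 6 RM82 libraries of transcript counts are described here. In 3 of them the cells had been treated for 24 h with SGC-CLK-1, an inhibitor of the CDC-like kinases that phosphorylate SR splicing factors, and in 3 with the solvent DMSO. All were grown in RPMI medium with serum, and the labels give no other difference between the groups.

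TRiC is a cylinder of stacked rings in the cytosol that encloses unfolded proteins and folds them with the energy of ATP. Each subunit is the product of its own gene and holds a fixed place in the ring, so that the complex needs all of them together. Actin and the tubulins are its best known substrates, and many beta-propeller proteins, among them the mitotic activator CDC20, also pass through it.

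The libraries held 666702, 362826 and 373004 counts with SGC-CLK-1 and 416352, 523456 and 372876 with DMSO, where a count is a molecular barcode assigned to a transcript. The SGC-CLK-1 library of replicate 1 was the deepest, and the SGC-CLK-1 library of replicate 2 was the shallowest, where 1 count stood for 2.76 CPM (the count scaled to a library total of 1000000). The labelled cell line was checked against marker genes. CCND1 and CD99, both high in Ewing sarcoma, had 181 to 301 and 34 to 74 counts per library, and STEAP1 had 29 to 46, and EWSR1, the 5′ partner of the fusion in this tumour, 42 to 185. NR0B1, PRKCB, PAX7 and LIPI were low, with at most 27 counts in a library, whereas NKX2-2 and FLI1 had none in any library, which allows up to 1.10 CPM over the 6 libraries together. Of markers for other cells, CD3E and SDC1 had no count, EPCAM, KRT18 and COL3A1 had at most 4 and PECAM1 at most 3 in a library, and the leukocyte gene PTPRC had 3 to 12. These are bulk RNA samples, in which fewer cells and less RNA per cell cannot be told apart.

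No subunit gene passed the test between SGC-CLK-1 and DMSO when its transcripts were summed. With edgeR's quasi-likelihood test and Benjamini-Hochberg adjustment over 6344 genes, 0 of the 8 subunits were called at an adjusted p of 0.05 and 0 had an unadjusted p under 0.05, where 15 genes in all, or 0.236%, were called and 437 had an unadjusted p under 0.05 with a higher and 442 with a lower value in the treated cells. In none of the 8 did the CPM of the groups separate, against 19.9% of all genes tested. The fitted log2 fold changes were negative for 6 subunits and positive for 2, with a median of -0.12 beside -0.0012 over all genes tested. The lowest bound of the 8 95% intervals of the fold change was 0.632, for CCT4, and the highest was 1.40, for CCT6A, and a change inside a gene's own interval cannot be told from none with these libraries.

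TCP1, the alpha subunit that gave the complex its name, had 370.5, 358 and 378 CPM with SGC-CLK-1 and 452, 422 and 333 CPM with DMSO. Its treated libraries lay close together and inside the range of the controls. The log2 fold change was -0.20 ± 0.19 (SE), with a 95% interval from -0.61 to 0.22. CCT2, the beta subunit, had 504.0, 422 and 450.4 CPM against 420.3, 468 and 563 CPM, the highest value being that of DMSO replicate 3. Its log2 fold change was -0.15 ± 0.20 (SE; interval -0.58 to 0.28).

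CCT3, the gamma subunit, had the largest sums, 1725, 1767 and 1552 CPM with SGC-CLK-1 and 1717, 1905 and 1247 CPM with DMSO. The controls spanned the treated libraries on both sides, and the log2 fold change was -0.02 ± 0.19 (SE; interval -0.42 to 0.37). CCT4, the delta subunit, had 568, 642 and 509 CPM against 641, 787 and 459 CPM. Its log2 fold change was -0.21 ± 0.21 (SE; interval -0.66 to 0.25), and again the controls lay on both sides of the treated libraries.

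CCT5, the epsilon subunit, had 1312, 1364 and 1190.3 CPM with SGC-CLK-1 and 1143, 1332 and 998 CPM with DMSO. Its log2 fold change was 0.08 ± 0.18 (SE; interval -0.30 to 0.46), with DMSO replicate 2 inside the treated range. CCT6A, the zeta subunit of most tissues, had 538, 609 and 665 CPM against 509, 640.0 and 480.1 CPM, and its log2 fold change was 0.07 ± 0.19 (SE; interval -0.34 to 0.49).

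CCT7, the eta subunit, had 1264, 852 and 815 CPM with SGC-CLK-1 and 1227, 1055 and 794 CPM with DMSO. It was high in replicate 1 of both groups, and the log2 fold change was -0.13 ± 0.22 (SE; interval -0.60 to 0.33). CCT8, the theta subunit, had 891, 1083 and 912 CPM against 942, 1142 and 850.1 CPM, with a log2 fold change of -0.10 ± 0.18 (SE; interval -0.49 to 0.29). Added over the 8 genes, the libraries held 7174, 7097 and 6472 CPM with SGC-CLK-1 and 7052, 7750.4 and 5723 CPM with DMSO. DMSO replicate 3 was the lowest of all 6 and DMSO replicate 2 the highest, so the controls set both ends of the range.

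**Figure D1:**
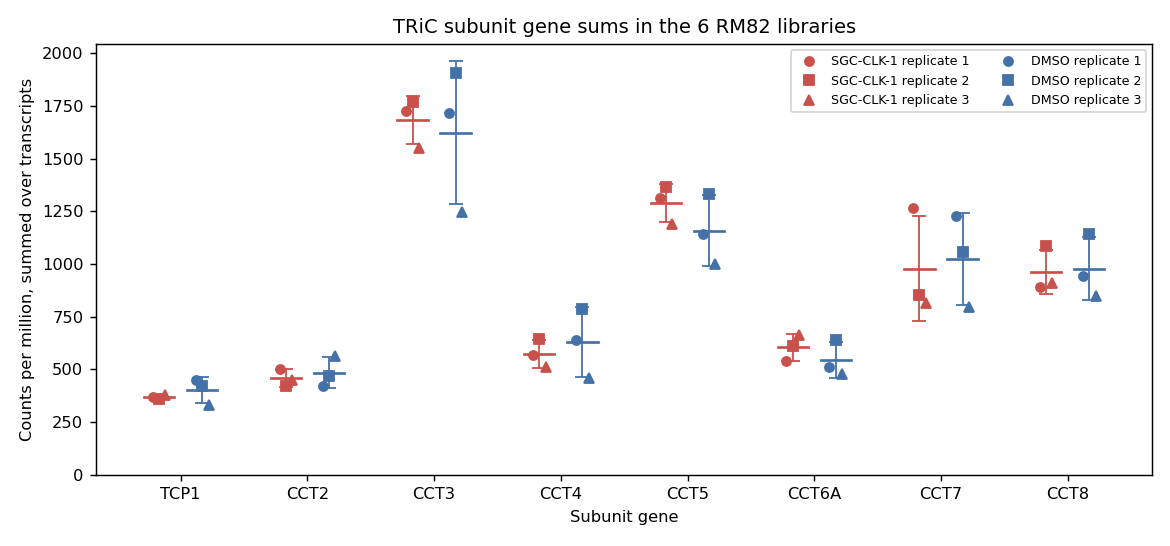
CPM (vertical axis) of each TRiC subunit gene, summed over its transcripts, in the 3 SGC-CLK-1 (red) and 3 DMSO (blue) libraries; symbols mark the replicate, horizontal lines the group mean and bars 1 SD. The groups overlap for all 8 genes, and DMSO replicate 3 is the lowest control for 7 of them.

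A gene sum may not be a number of molecules. The authors' alignment kept secondary hits, so that 1 molecule could be counted on several similar transcripts. How often this happened was not tested. In CCT7, ENST00000258091 had 324, 138 and 135 counts with SGC-CLK-1. ENST00000539919, which shares most of its exons, had 324, 137 and 136. For CCT3 and CCT8, 3 further transcripts each reached 80% or more of the total of the most abundant one, and for the other 6 genes 1 further transcript did. Gene sums were between 2.10 times (CCT4) and 4.06 times (CCT8) the count of the most abundant transcript. The fit was therefore repeated with the most abundant transcript of each gene alone. Again 0 of the 8 subunits were called, where 4.01% of 3689 genes were. CCT5 then had a log2 fold change of 0.16 ± 0.18 (SE; interval -0.20 to 0.52), and TCP1 one of -0.16 ± 0.20 (SE; interval -0.58 to 0.26), while CCT3 moved from -0.02 to 0.03 and CCT7 from -0.13 to 0.03.

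**Figure D2:**
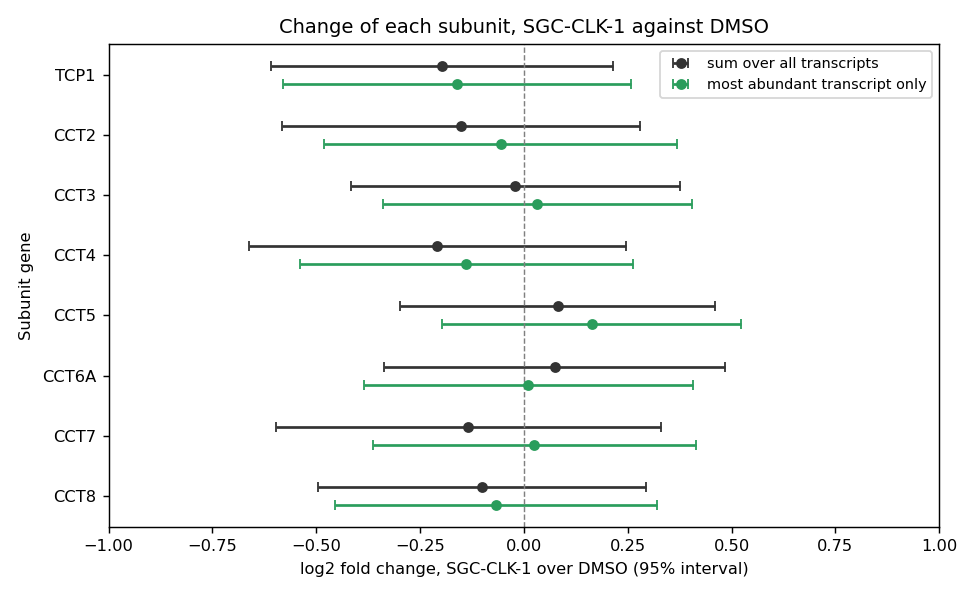
Log2 fold change of each subunit, SGC-CLK-1 over DMSO (horizontal axis), with its 95% interval, from gene sums (black) and from the most abundant transcript alone (green). All 16 intervals include 0, and the sign differs between the 2 ways of counting for CCT3 and CCT7.

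The balance of the subunits was examined next, since the assembled complex holds them in equal number. Levels were compared between genes as CPM per kilobase of the most abundant transcript. A count here is a barcode from full-length cDNA and not a fragment, so division by length may favour short transcripts. The ends of the order without it are given below. By the most abundant transcript alone, the order per kilobase from high to low was CCT7, CCT3, CCT5, CCT8, CCT4, CCT6A, CCT2 and TCP1. CCT7 had 218.8 ± 37.7 CPM per kilobase (SD over the 6 libraries), CCT3 209 ± 30.2, CCT5 133 ± 17.8 and CCT8 128 ± 15.5. CCT4 had 121 ± 23.0, CCT6A 98.4 ± 14.8, CCT2 80.2 ± 9.01 and TCP1 67.9 ± 9.53 CPM per kilobase. The only step that all 6 libraries shared was the one from CCT3 to CCT5. CCT7 was above CCT3 in 3 of 6 libraries, and each of the remaining neighbours kept its order in 4 or 5 of 6. The step from CCT3 to CCT5 rests on the length of ENST00000280326, 3293 bases, with 1199 counts over the 6 libraries. CCT5 ENST00000503026 had 1133 counts and is 1933 bases long, and scaling by it would place CCT5 higher.

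By the most abundant transcript per kilobase CCT7 was 3.24 ± 0.552 times TCP1 (SD, n = 6), with 2.77 in the lowest library and 4.25 in the highest. With gene sums per kilobase CCT3 stood first, at 836 ± 115 CPM per kilobase, and TCP1 last, at 164 ± 18.6, a ratio of 5.11 ± 0.572. CCT3, CCT8 and CCT2 moved up with summing. CCT3 and CCT8 are the 2 with 3 further transcripts of near-equal count, whereas CCT2 has 1. TCP1 was the lowest subunit by both of these measures. Without division by length, the most abundant transcript put CCT5 highest and CCT2 lowest, at a ratio of 2.89 ± 0.556 (SD, n = 6), with TCP1 next to CCT2, and coding transcripts summed gave the same ends of the order.

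The share of each subunit in the total of the 8 was compared between the groups. By gene sums CCT5 took 18.3%, 19.2% and 18.4% with SGC-CLK-1 and 16.2%, 17.2% and 17.4% with DMSO, and its groups did not overlap. By its most abundant transcript it took 19.2%, 20.3% and 19.4% against 17.4%, 17.8% and 17.4%. The shares of the other 7 subunits overlapped between the groups by both measures. Shares add up to a fixed total, no p was computed for them, and no share over all genes is defined to set beside 1 of 8. With 3 libraries against 3, an exact two-sided permutation test of a single value cannot go below 0.1, so that a separation in 1 of 8 shares is not read as a change.

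**Figure D3:**
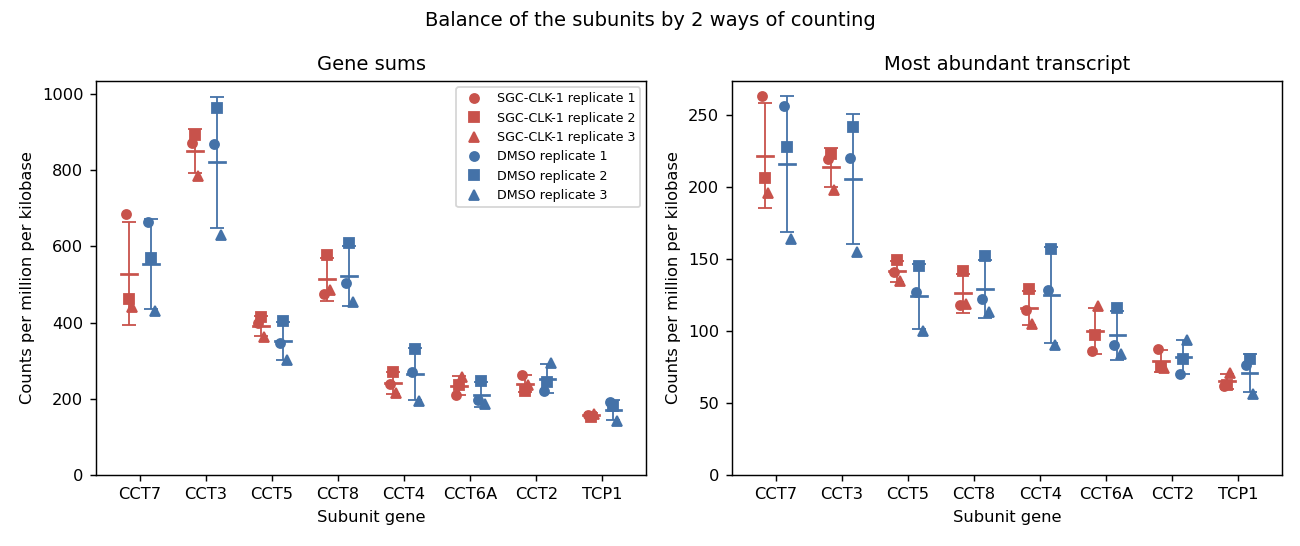
CPM per kilobase of the most abundant transcript (vertical axes), from gene sums (left) and from that transcript alone (right), for the 8 subunits in the order of the right panel; colours and symbols give group and replicate, lines the group mean and bars 1 SD. CCT3 leads on the left with CCT7 well below it, and both stand together on the right, while TCP1 is lowest in both of these length-scaled measures.

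Among single transcripts, 1 of the 33 that passed the filter on low counts was called: ENST00000492618 of CCT6A, which was higher with SGC-CLK-1. Of all 7840 transcripts tested, 1.85% were called higher and 2.10% lower with SGC-CLK-1. A single call among 33 is near these shares and is not read as a result about the subunits. ENST00000492618 is annotated as a retained-intron transcript and carries no reading frame. It had 34, 20 and 21 counts with SGC-CLK-1 and 7, 12 and 12 with DMSO, which is 51.0, 55.1 and 56.3 CPM against 16.8, 22.9 and 32.2 CPM. Every treated library was above every control. In either direction the groups separated for 4 of the 33 subunit transcripts, where they did for 23.0% of all transcripts tested. The log2 fold change was 1.18 ± 0.33 (SE; interval 0.50 to 1.86), a 2.27-fold difference, with an adjusted p of 0.039 in edgeR's quasi-likelihood test. The transcript was not called with DESeq2, which gave it no adjusted p, and it was not tested where 10 counts were required in every library. The call was lost without a filter on low counts (adjusted p = 0.20) and on leaving out any 1 library other than DMSO replicate 3, with adjusted p between 0.073 and 0.20, and the log2 fold change stayed between 1.00 and 1.39 in all alternatives run.

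The reference transcript of the gene was not called. ENST00000275603, the canonical coding transcript with 14 exons (GRCh38 chr7:56051765-56063989, plus strand), had 148, 91 and 113 counts with SGC-CLK-1 and 97, 157 and 81 with DMSO, a log2 fold change of 0.04 ± 0.21 (SE; interval -0.39 to 0.47). ENST00000492618 thus stood at 23.0%, 22.0% and 18.6% of the canonical transcript in the treated libraries and at 7.22%, 7.64% and 14.8% in the controls. In edgeR's test of transcript usage, which asks whether a transcript changes relative to its gene, CCT6A had an adjusted p of 1.00 over 1805 genes. None of the 8 subunit genes passed that test, where 0.277% of the genes did, and CCT6A was the only one with an unadjusted p under 0.05.

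ENST00000492618 begins at exon 9 of CCT6A and reads exons 9 to 12 as the canonical transcript does, over 482 bases, then runs on into intron 12 for 210 bases and ends there. Intron 12 spans 833 bases (chr7:56061850-56062682, plus strand), so the transcript ends well before the acceptor. The kept stretch is shown because it holds all the bases of ENST00000492618 that lie outside the canonical exons, with the first 2 intron bases, the donor dinucleotide, in capitals. Below it stands the stretch of the pseudogene CCT6P3 that aligns with it, in which capitals mark bases that differ from CCT6A or are missing there. Both were read from GRCh38, plus strand, at chr7:56061850-56062059 and chr7:65072248-65072480.
CCT6A intron 12, kept part: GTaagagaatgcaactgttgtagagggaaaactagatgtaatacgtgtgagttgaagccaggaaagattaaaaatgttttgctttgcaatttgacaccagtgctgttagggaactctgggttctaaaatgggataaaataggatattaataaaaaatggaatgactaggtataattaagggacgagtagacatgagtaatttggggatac
CCT6P3, aligned part: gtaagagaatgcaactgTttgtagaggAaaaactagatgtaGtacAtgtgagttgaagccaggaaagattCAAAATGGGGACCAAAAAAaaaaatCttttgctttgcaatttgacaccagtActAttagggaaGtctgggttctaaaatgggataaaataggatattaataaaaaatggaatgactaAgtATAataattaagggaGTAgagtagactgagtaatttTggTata

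**Figure D4:**
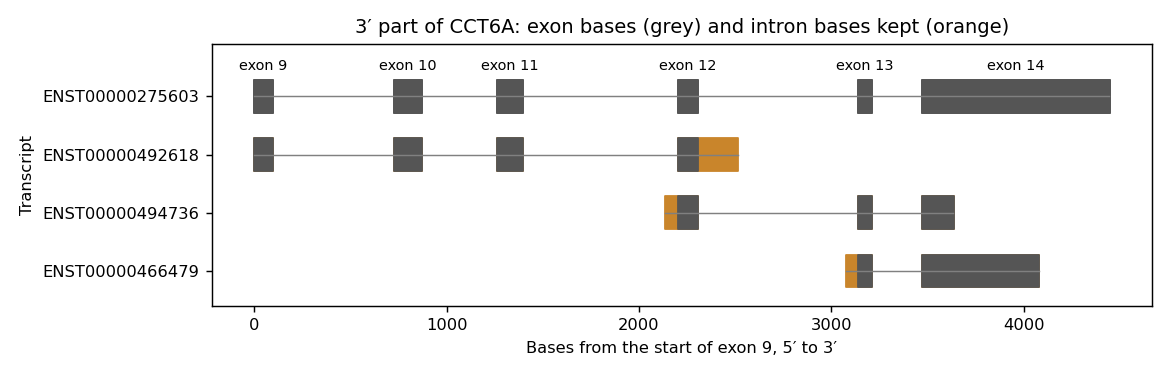
Exons of the canonical CCT6A transcript from exon 9 on (top) and of its 3 most abundant retained-intron transcripts; the horizontal axis is distance in bases from the start of exon 9, grey blocks are bases in canonical exons and orange blocks are intron bases. ENST00000492618 extends exon 12 by 210 bases into an intron of 833 bases, and the other 2 begin upstream of exon 12 or exon 13.

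Over the aligned bases the CCT6P3 stretch had 197 identical bases, 11 mismatches and 26 gap bases, and that of CCT6P1, another copy on the same chromosome, had 198, 10 and 25. None of these bases lies in an annotated exon of either copy, so no annotated transcript of the copies covers the stretch, and counts alone do not tell a molecule of CCT6A from one of an unspliced copy. CCT6P3 was itself listed with 33, 18 and 23 counts with SGC-CLK-1 and 17, 13 and 12 with DMSO under its main gene identifier, or 49.5, 49.6 and 61.7 CPM against 40.8, 24.8 and 32.2 CPM. Its treated libraries were all above its controls, and it was not called, with a log2 fold change of 0.64 ± 0.38 (SE) and an adjusted p of 0.48 in edgeR's test. The part of the copies in the count of ENST00000492618 was not tested. Both copies kept their introns and are unprocessed pseudogenes. CCT6P1 had 14 counts over the 6 libraries, CCT4P2 had 3, TCP1P1 and TCP1P3 had 2 each, and the other 10 of the 15 pseudogenes had none.

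CCT6A had 5 further retained-intron transcripts with a count. ENST00000466479, which starts 64 bases upstream of exon 13, had 41, 22 and 14 counts with SGC-CLK-1 and 16, 21 and 16 with DMSO, a log2 fold change of 0.43 ± 0.30 (SE; interval -0.18 to 1.04). It was high in treated replicates 1 and 2, whereas treated replicate 3 was below all the controls in CPM. ENST00000494736, which starts 69 bases upstream of exon 12, had 14, 9 and 6 against 8, 9 and 5 counts and did not pass the filter on low counts. ENST00000482776 had 4, 1 and 0 counts with SGC-CLK-1 and none with DMSO, and ENST00000466572 and ENST00000493855 had 1 count each over the 6 libraries. Over all genes, 645 retained-intron transcripts were tested, of which 10 were called higher and 33 lower in the treated cells. Their median log2 fold change was -0.014.

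**Figure D5:**
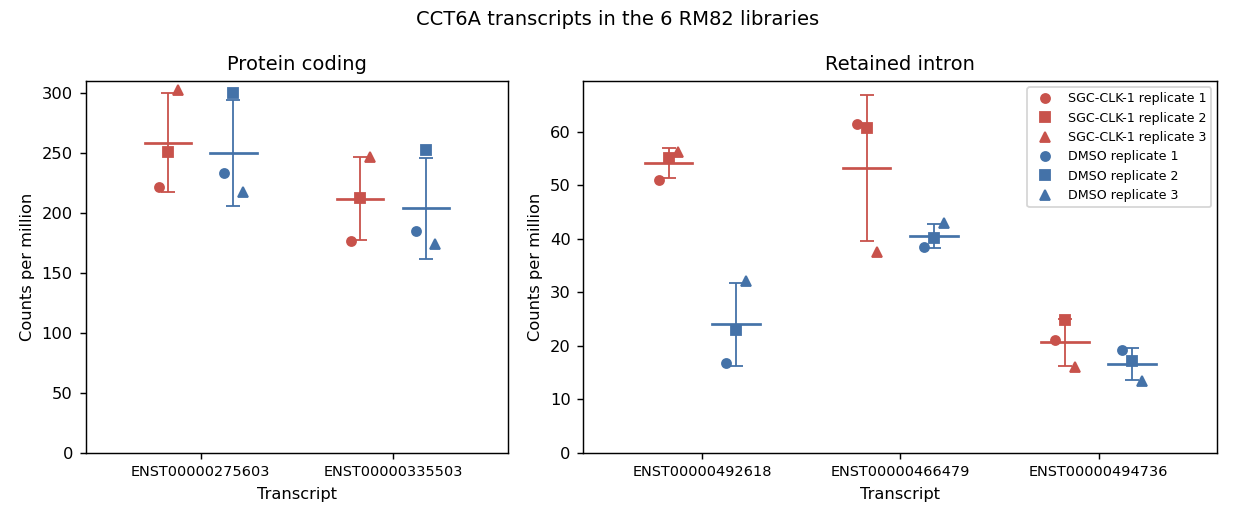
CPM (vertical axes, different scales) of the 2 main coding transcripts of CCT6A (left) and of its 3 most abundant retained-intron transcripts (right); colours and symbols give group and replicate, lines the group mean and bars 1 SD. Of these 5 transcripts, the groups separate for ENST00000492618 alone, at 51.0 to 56.3 CPM with SGC-CLK-1 and 16.8 to 32.2 CPM with DMSO.

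The most abundant transcript of each other subunit gave no call in the transcript fit. These were ENST00000321394 of TCP1, ENST00000299300 of CCT2, ENST00000295688 of CCT3, ENST00000394440 of CCT4, ENST00000280326 of CCT5, ENST00000258091 of CCT7 and ENST00000470450 of CCT8. Their log2 fold changes lay between -0.13 for ENST00000321394 and 0.19 for ENST00000280326. ENST00000470450 is annotated without a defined reading frame, although only 27 of its 1872 bases lie outside the exons of the canonical coding transcript of CCT8.

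Of the further transcripts not annotated as protein coding, CCT8 ENST00000496121, which keeps introns 9 and 10 whole, had 32, 11 and 15 counts with SGC-CLK-1 and 27, 14 and 19 with DMSO, a log2 fold change of -0.18 ± 0.33 (SE; interval -0.86 to 0.50). CCT4 ENST00000461540, a short form without exons 9 to 12, had 20, 12 and 7 against 15, 24 and 15 counts, with all treated libraries below all controls in CPM and a log2 fold change of -0.55 ± 0.34 (SE; interval -1.25 to 0.14). CCT2 ENST00000550010 and CCT3 ENST00000368258 and ENST00000368262 are annotated as targets of nonsense-mediated decay, the route that destroys transcripts with a premature stop. Their log2 fold changes were 0.10, 0.10 and 0.07, each with an SE of 0.20 to 0.25. For the pair from CCT3, whose counts ran alongside those of the coding transcript in each library, the counts do not separate the decay targets from it.

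Some coding transcripts with exons left out were picked out after their values were seen. CCT7 ENST00000540468, which lacks exons 2 and 3, had 99, 18 and 20 counts with SGC-CLK-1 and 68, 61 and 40 with DMSO. CCT7 ENST00000398422, which lacks exons 2 to 6, had 71, 14 and 9 against 46, 46 and 23 counts. In both, treated replicates 2 and 3 were below every control in CPM, whereas treated replicate 1 was within the controls, and neither was called, with log2 fold changes of -0.51 ± 0.30 and -0.48 ± 0.34 (SE). Leaving out treated replicate 1 made them the 2 subunit transcripts called, at log2 fold changes of -1.30 and -1.45 and adjusted p of 0.024 and 0.030 in edgeR's test. TCP1 ENST00000544255, which lacks exons 2 and 4 to 6, had 39.0, 27.6 and 24.1 CPM against 57.6, 45.8 and 61.7 CPM, with a log2 fold change of -0.78 ± 0.32 (SE) and an adjusted p of 0.18 in the same test. CCT5 ENST00000515676, which opens with its own first exon and joins the canonical transcript at exon 2, had a log2 fold change of 0.57 ± 0.24 (SE) and an adjusted p of 0.21. Its counts were 103, 69 and 46 with SGC-CLK-1 and 43, 69 and 29 with DMSO.

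Each minor transcript was also set against the most abundant transcript of its gene, a comparison chosen after seeing the data. Of 25 such ratios in the 8 genes, 2 were higher and 3 lower with SGC-CLK-1 without overlap, where 5.88% and 7.78% of 3726 ratios over all genes were. The higher ones were ENST00000492618 and CCT5 ENST00000515676, the latter at 33.3%, 38.8% and 27.9% of ENST00000280326 against 24.7%, 27.6% and 23.6%. The lower ones were CCT5 ENST00000506600, CCT4 ENST00000461540 and CCT2 ENST00000544368. CCT5 ENST00000506600, which lacks exon 3, stood at 25.9%, 24.2% and 19.4% with SGC-CLK-1 and 31.6%, 29.2% and 44.7% with DMSO. DMSO replicate 3 was the highest of the 6 libraries for all 3 of the lower ratios. That library also had the largest share of counts on transcripts under 1000 bases, 14.2%, beside 11.03% and 12.7% in the other controls and 12.5% to 13.2% in the treated libraries, and its part in these ratios was not tested. Of the 3 transcripts only ENST00000461540, with 638 bases, is that short, whereas ENST00000506600 has 1939 and ENST00000544368 has 1728.

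The share of each gene's counts on transcripts not annotated as protein coding was highest for CCT3, at 50.3% ± 0.781 with SGC-CLK-1 and 49.6% ± 0.709 with DMSO (SD, n = 3), owing to the pair of decay-annotated transcripts described above. The groups did not overlap for 2 of the 8 genes, against 11.8% of 5147 genes. For TCP1 the share was 8.10%, 7.69% and 6.38% with SGC-CLK-1 and 4.79%, 2.26% and 2.42% with DMSO. These shares rest on 20, 10 and 9 counts against 9, 5 and 3, spread over transcripts that each had at most 6 in a library. For CCT4 the share was lower, at 5.28%, 5.15% and 4.21% against 5.62%, 6.07% and 9.36%, nearly all of it on ENST00000461540. Both had p = 0.1 in the exact two-sided permutation test, the smallest that 20 groupings allow, and 0.4 after adjustment over the 8 genes.

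Counting retained-intron transcripts alone, TCP1 still separated, at 4.45%, 6.15% and 2.84% against 2.66%, 1.36% and 0.806%, and no other subunit did, where 11.6% of 3678 genes did. The TCP1 shares then came from 11, 8 and 4 counts against 5, 3 and 1, with an adjusted exact permutation p of 0.8. CCT6A had the largest retained-intron share, 25.9%, 23.5% and 16.9% with SGC-CLK-1 and 14.6%, 12.8% and 18.4% with DMSO. Treated replicate 3 lay inside the range of the controls, and the exact permutation p was 0.2. CCT4 had no retained-intron count in any library.

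The genes that work with TRiC were then taken as lists. No gene of any list was called in the gene-sum fit, in which 0.236% of all genes were, so that the absence of calls is not read as a result about the lists. Of the prefoldin subunits, which hand nascent actin and tubulin to TRiC, 5 of 6 were tested, 1 with a positive and 4 with a negative log2 fold change, and the median was -0.18. VBP1, the most abundant of them, had a log2 fold change of -0.10 ± 0.21 (SE) and PFDN5 one of -0.18 ± 0.28. Of the phosducin-like and other TRiC binding proteins 3 of 5 were tested, all negative, with PDCD5 at -0.16 ± 0.45 and TXNDC9 at -0.29 ± 0.39 (SE). Of the 5 chaperonin-like genes only MKKS, which belongs to the related complex of the Bardet-Biedl proteins, was tested, at 0.54 ± 0.46 (SE). CCT6B, the zeta subunit of testis, had 18, 5 and 3 counts against 5, 5 and 4.

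Among the actin and tubulin genes, 9 of 13 were tested, 4 positive and 5 negative, with a median log2 fold change of -0.13. ACTB had 3936, 5080 and 4126 CPM with SGC-CLK-1 and 3973, 2921 and 5393 CPM with DMSO, and TUBA1B 2454, 1681 and 2035 CPM against 1989, 2241 and 1582 CPM. Their log2 fold changes were 0.014 ± 0.22 and 0.016 ± 0.19 (SE). TUBB, named after its values were seen, had 172, 113 and 201 CPM against 108, 82.1 and 56.3 CPM, with a log2 fold change of 0.91 ± 0.30 (SE) and an adjusted p of 0.17 in edgeR's test. It was the only gene of that list with an unadjusted p under 0.05, which 437 genes higher and 442 genes lower in the treated cells had among all 6344. Of the tubulin folding cofactors, which take over after TRiC, 3 of 5 were tested, with TBCE at -0.36 ± 0.35 and TBCA at 0.20 ± 0.43 (SE).

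Of 12 other substrates, 9 were tested, 5 positive and 4 negative, with a median of 0.00099. CDC20, which activates the anaphase-promoting complex, had 133, 110.2 and 105 CPM with SGC-CLK-1 and 247, 252 and 188 CPM with DMSO. Its groups did not overlap, as was so in either direction for 19.9% of all genes tested. Its log2 fold change was -1.04 ± 0.23 (SE; interval -1.54 to -0.54), with an adjusted p of 0.061 in edgeR's test, short of the threshold. MLST8, a subunit of the mTOR complexes, was named after its values were seen, at -0.84 ± 0.30 (SE) and an adjusted p of 0.21 in the same test. DCAF7, also named after its values were seen, went the other way, at 0.31 ± 0.27 (SE), with all treated libraries above all controls.

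The chaperonin of mitochondria, built from HSPD1 with its lid HSPE1, is a separate machine and served for comparison. HSPD1 had 1381, 1268 and 1273 CPM with SGC-CLK-1 and 1588, 2142 and 1639 CPM with DMSO, with all treated libraries below all controls. In either direction the groups separated for 19.9% of all genes tested. The log2 fold change of HSPD1 was -0.53 ± 0.18 (SE; interval -0.91 to -0.14), with an unadjusted p of 0.011 and an adjusted p of 0.19 in edgeR's test. HSPE1 had a log2 fold change of -0.41 ± 0.26 (SE). Whether HSPD1 and the TRiC subunits differ in their change was not tested.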

How the data were processed

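RNA of RM82 cells treated with SGC-CLK-1 or DMSO, 3 libraries each, had been sequenced as full-length cDNA on a nanopore instrument. Per the labels and the study's methods, the authors aligned reads with minimap2 to human transcripts (hg38), keeping secondary hits (the submitters' processing notes give version 2.22, the methods a later one), and deposited counts of unique molecular identifiers per transcript. Which barcode correction gave these counts is not given in the sources used here. The methods describe turning reads to the same orientation by their polyA region, but not whether counting used strand. This concerns the 3′ end of TCP1, where ACAT2 lies on the opposite strand. The study describes its experiments in general as independently repeated, but the labels do not say whether these libraries came from separate cultures, so p-values measure only the spread between them, which may be technical.

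Identifiers were matched to GENCODE release 44 for 86362 of 93530 transcripts; all 92 subunit transcripts had the same version. Counts were fitted with edgeR 4.0.16 in R 4.3.3 (TMM, filterByExpr with a minimum count of 10, quasi-likelihood F-test, diffSpliceDGE for usage), with Benjamini-Hochberg adjustment over all features and calls at 0.05. DESeq2 1.42.0 was an alternative. Intron copies were aligned with Biopython 1.88. On simulated counts with 200 features changed 4-fold, 94% of gene sums and 95% of transcripts changed were recovered, and 3.59% and 7.77% of calls were wrong. The simulation held only 4-fold changes, so it does not give the recovery of changes as small as those inside the subunit intervals. A limit for a count of 0 is 3 counts, and intervals on counts cover counting error only. Between libraries of a group, chi-square per degree of freedom was 1.37 to 3.15, and no pair was treated as 1 library. Counting of 1 molecule on several transcripts could also raise this value, which was not tested. The subunits and lists were chosen with earlier results of these data known. The text names all subunits, the most abundant transcript of each, called and non-coding transcripts past the filter, counted pseudogenes and the 2 most abundant genes of each list, and says where other genes were named after their values were seen. A marker and a gene of the lists that this rule covers are not reported here. Libraries of other cells and assays were not used.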

Additional observations from a re-analysis of the deposited data

How the results depend on the processing

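No subunit gene sum passed the threshold in any of 112 recomputed fold changes, whose smallest adjusted p was 0.47, and 9 of them changed sign, all close to 0. Scaling by library size moved the median of all genes to 0.075. It gave log2 fold changes of 0.052 for the CCT3 sum, 0.023 for CCT2 ENST00000299300 and 0.012 for CCT8 ENST00000470450. Other sums under this scaling were -0.12 for TCP1, -0.069 for CCT2, -0.14 for CCT4 and 0.16 for CCT5. Those of CCT6A, CCT7 and CCT8 were 0.15, -0.064 and -0.025. At least 10 counts in every library gave 0.025 for the CCT3 sum, coding transcripts alone -0.0095 for the CCT6A sum, no filter -0.0023 for CCT6A ENST00000275603, and the most abundant transcript 0.032 for CCT3 and 0.025 for CCT7. Leaving out 1 library at a time gave sums from -0.16 to 0.10 for CCT3 and -0.011 to 0.20 for CCT6A. The range was -0.20 to 0.020 for CCT8, -0.30 to -0.14 for TCP1 and 0.00099 to 0.19 for CCT5. It was -0.27 to -0.0077 for CCT2, -0.38 to -0.019 for CCT4 and -0.39 (without SGC-CLK-1 replicate 1) to -0.015 for CCT7. For single transcripts the range was -0.29 to -0.027 for TCP1 ENST00000321394, -0.12 to 0.058 for CCT2 ENST00000299300 and -0.13 to 0.20 for CCT3 ENST00000295688. It was -0.32 to 0.092 for CCT4 ENST00000394440, 0.040 to 0.33 for CCT5 ENST00000280326 and -0.073 to 0.20 for CCT6A ENST00000275603. For CCT7 ENST00000258091 it was -0.13 to 0.19 and for CCT8 ENST00000470450 -0.14 to 0.11. The subunit transcripts called fell from 1 to 0 with no filter, with at least 10 counts in every library, which removes ENST00000492618, and with DESeq2, which gave that transcript a log2 fold change of 1.19 and no adjusted p. Leaving out 1 library gave 0 to 2. Genes called numbered 28 with library size scaling, 169 with no filter, 64 with at least 10 counts in every library, 36 with the replicate block, 107 with DESeq2, 0 with coding transcripts alone, 148 with the most abundant transcript and 1 to 21 leaving out 1 library, against 15. Transcripts called numbered 162, 173 and 113 with no filter, at least 10 counts and DESeq2, and 81 to 363 leaving out 1 library, against 310. Usage calls numbered 2 and 1 with no filter and at least 10 counts, and 1 to 5 leaving out 1 library, against 5. The ratio of the highest to the lowest subunit was 4.29 with sums and 5.11 per kilobase, both CCT3 over TCP1, and 2.89 with the most abundant transcript and 3.45 with coding transcripts alone, both CCT5 over CCT2. The non-coding share separated for 2 genes, for 1 with retained introns alone and for 2 to 3 leaving out 1 library. Ratios to the most abundant transcript, added after seeing the data, separated for 5 transcripts where the usage test called 0 genes. Correlations of the deviations of libraries with the same replicate number were 0.064, 0.024 and 0.031, beside -0.074 to 0.036 for different numbers. Such values near 0 neither show nor exclude a pairing by replicate number. The replicate block gave 427 transcripts called, against 310. With the replicate block, ENST00000492618 had a log2 fold change of 1.21 and an adjusted p of 0.027 in edgeR's test, and no subunit call changed. The causes of these shifts were not tested. Depth limits ENST00000492618, which rests on 75 counts against 31.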
